A study of Mus musculus with 6 samples.

Results

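The genes described here are 10 members of the YAP-TEAD pathway: the secreted-protein genes Ccn1 (also called Cyr61) and Ccn2 (Ctgf), Ankrd1, Amotl2, Amot, Lats2, Yap1, Tead1, Tead2 and Tead4. They were taken by name, as every probe set that the platform annotation gives to 1 of these symbols alone. All 10 genes were found, with 24 probe sets of the 45037 tested, or 10 genes of the 18193 that had a probe set of their own. A further probe set shared by Lats2 and another gene was left out. The samples were 3 arrays of Med23 knockout mouse embryonic stem (ES) cells and 3 arrays of wild-type ES cells, both of the 129SV strain and both harvested after 24 hours in fresh complete medium. Med23 is a subunit of Mediator, the complex that carries signals from transcription factors to RNA polymerase II. The labels call the arrays of a group biological replicates and give neither the number of knockout clones nor how the gene was disrupted. The p-values therefore set the difference between groups against the spread between these samples, and do not speak for other knockout clones.

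YAP1 is a transcriptional coactivator that has no DNA-binding domain and acts on genes through the TEAD transcription factors. The Hippo kinase cascade ends in LATS1 and LATS2, which phosphorylate YAP1 and keep it in the cytoplasm, and the angiomotins AMOT and AMOTL2 bind YAP1 and also hold it there or at cell junctions. CCN1, CCN2, ANKRD1, AMOTL2 and LATS2 are widely used readouts of YAP-TEAD activity, so that some members are both regulators and targets. In the early embryo TEAD4 and YAP1 act in the trophectoderm, and YAP1 and TEAD factors are also present in ES cells.

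The sequences just upstream of 4 members are shown because Ccn1, Ankrd1 and Amotl2 are textbook TEAD targets while Amot, not used as one, had the largest difference of the 10. RefSeq promoter sequences of build GRCm38.p6 were matched by symbol for 7 of the 10 genes. Ccn2, Tead1 and Tead4 were not matched. Each sequence below is the 250 bases before an annotated start, 5′ to 3′ on the strand of the gene. Capitals mark the TEAD motif GGAATG or its reverse complement CATTCC, searched on both strands; the 2 spellings do not overlap here.
Ccn1, chr3:145649986-145650235, minus strand: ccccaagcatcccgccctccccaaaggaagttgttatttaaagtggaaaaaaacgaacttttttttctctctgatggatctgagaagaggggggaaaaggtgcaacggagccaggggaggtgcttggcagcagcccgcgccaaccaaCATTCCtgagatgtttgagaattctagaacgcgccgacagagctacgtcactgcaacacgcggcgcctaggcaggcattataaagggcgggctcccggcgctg
Ankrd1, chr19:36119845-36120094, minus strand: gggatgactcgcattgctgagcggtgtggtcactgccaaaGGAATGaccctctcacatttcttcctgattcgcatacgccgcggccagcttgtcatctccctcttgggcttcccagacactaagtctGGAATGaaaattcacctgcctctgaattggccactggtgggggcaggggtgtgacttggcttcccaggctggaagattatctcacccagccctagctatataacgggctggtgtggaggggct
Amotl2, chr9:102717554-102717803, plus strand: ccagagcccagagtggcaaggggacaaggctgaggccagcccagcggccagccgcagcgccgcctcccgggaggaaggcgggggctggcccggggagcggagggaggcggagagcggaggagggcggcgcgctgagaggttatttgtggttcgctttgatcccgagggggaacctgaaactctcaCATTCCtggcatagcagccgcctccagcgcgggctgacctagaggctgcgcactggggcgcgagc
Amot, chrX:145487640-145487889, minus strand: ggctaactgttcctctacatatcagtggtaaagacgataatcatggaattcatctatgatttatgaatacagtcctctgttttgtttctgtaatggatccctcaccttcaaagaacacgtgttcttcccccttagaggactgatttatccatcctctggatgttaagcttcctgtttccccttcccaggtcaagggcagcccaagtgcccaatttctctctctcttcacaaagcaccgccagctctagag
The Ccn1 window held 1 motif, starting 103 bases before the start. The Ankrd1 window held 2, starting 210 and 123 bases before the start, and the Amotl2 window held 1, 65 bases before it. Yap1, not among the readouts named above, also had 1, starting 141 bases before its start. No match was found in the windows of Amot, Lats2 (2 annotated starts) and Tead2, although Lats2 is among those readouts. The 4 windows shown therefore do not stand for all 7 matched genes, in which a motif did not separate readouts from the others. Of all 32851 windows of this length, 12.6% held at least 1 motif and 1.02% held 2 or more.

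The targeted gene was lower in the knockout. Med23 had 7.40, 7.37 and 7.33 (log2) in knockout replicates 1, 2 and 3, against 8.95, 8.86 and 8.84 in wild-type replicates 1, 2 and 3, and the groups did not overlap. The fall was 2.86-fold, to a knockout mean of 7.37, so a clear signal remained in the knockout. The labels do not place the Med23 probe set relative to the disruption, and what the remaining signal reads was not tested. Array medians lay between 4.61 and 4.64, and the median of all probe set means was 4.62, the level used here to say that a value is low. Arrays correlated at 0.998 within the knockout group, at 0.993 to 0.997 within the wild-type group and at 0.988 to 0.991 between groups. Wild-type replicate 1 stood apart: 752 of its probe sets read 2-fold or more under the average of the other wild-type arrays. None of the 24 probe sets of the pathway was among them, and their differences from that mean ran from -0.28 to 0.52. With 3 arrays a group, the precision of every value is limited.

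Of the 10 genes, 3 fell in the knockout (Ccn1, Ccn2 and Amot), 1 rose (Tead1) and 6 did not pass the test, with each gene read by its brightest probe set. Calls are limma results at 0.05 after Benjamini-Hochberg correction across the 45037 probe sets. Of all 18193 genes, 10.4% fell and 8.53% rose. The median log2 fold change, knockout minus wild-type, was -0.18 over the 10 genes and 0.02 over all genes. Counted by probe set, 6 of 24 fell and 1 rose, where 7.43% and 6.69% of all probe sets did, and 9 of the 24 lay at or below 4.62 in both groups. Without wild-type replicate 1 the count was again 3 genes lower and 1 higher, but the higher gene was then Tead2 (log2 fold change 0.28, limma adjusted p = 0.0339) and not Tead1. Genes over a stretch of chromosome 14, described with Lats2 and Ajuba, were also lower in the knockout cells, and the effect of losing Med23 and that of other differences that arose between the cell populations cannot be told apart.

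**Figure D1:**
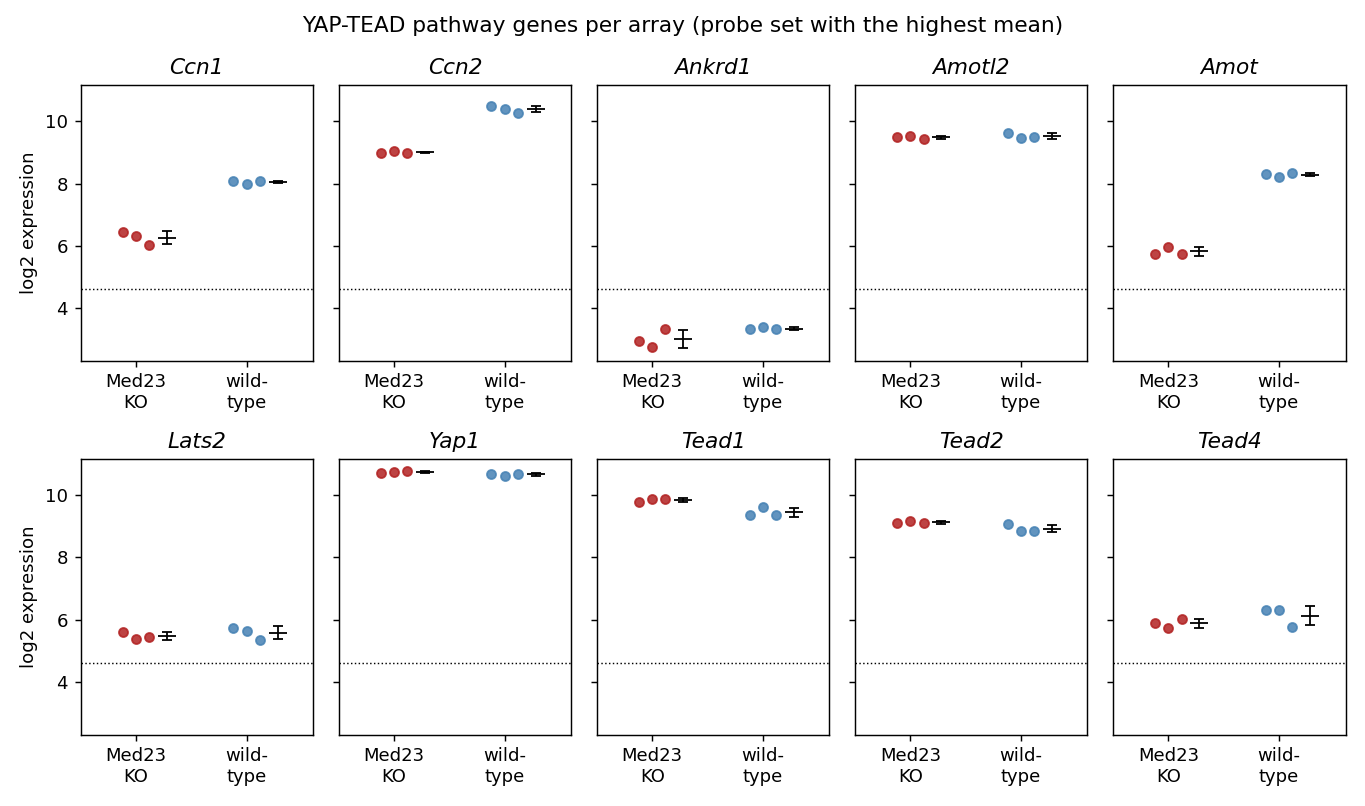
Log2 expression on each array (y axis) of the brightest probe set of each of the 10 genes, with knockout arrays in red at left and wild-type arrays in blue at right of each panel, and black marks for mean and SD (n = 3). The dotted line is the median of all probe sets, 4.62; the red and blue points separate widely for Ccn1, Ccn2 and Amot, and Ankrd1 lies below the line in both groups.

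Ccn1 encodes a matricellular protein, a secreted protein that sits in the extracellular matrix and signals through integrins. Its brightest probe set read 6.44, 6.33 and 6.04 (log2) in the 3 knockout replicates, against 8.07, 8.00 and 8.08 in the 3 wild-type replicates. All knockout arrays lay more than 1 log2 unit below every wild-type array. The means were 6.27 ± 0.21 in knockout and 8.05 ± 0.04 in wild-type cells (SD, n = 3 each). Knockout cells were 3.45-fold lower, with a log2 difference of -1.78 ± 0.11 (SE; limma adjusted p = 0.000108).

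The other 3 Ccn1 probe sets fell too. The second brightest read 5.48, 5.67 and 5.54 in knockout arrays and 7.71, 7.50 and 7.65 in wild-type arrays, a log2 difference of -2.05 ± 0.09 (SE; limma adjusted p = 2.7e-05). The dimmer pair gave log2 fold changes of -1.31 and -1.44, and their knockout means, 4.27 and 3.99, lay below 4.62, so the size of those falls is uncertain. No array of one group overlapped the other group in any of the 4. The calls of all 4 held in each of the 6 fits that left out 1 array, with limma adjusted p at most 0.00648. The platform's suffix x_at marks probe sets that can bind transcripts of more than 1 gene. It is carried by the brightest and the dimmest Ccn1 probe sets, and the pair without it fell as well.

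Ccn2 encodes connective tissue growth factor, a secreted relative of CCN1 with the same domain plan. Its only probe set read 9.00, 9.03 and 8.99 (log2) in knockout arrays and 10.48, 10.39 and 10.27 in wild-type arrays. The groups did not overlap, and the knockout arrays lay within 0.05 of each other. The means were 9.00 ± 0.02 in knockout and 10.38 ± 0.10 in wild-type cells (SD, n = 3 each). This is 2.60-fold lower in knockout cells, a log2 difference of -1.38 ± 0.07 (SE; limma adjusted p = 6.56e-05). Leaving out 1 array at a time gave log2 fold changes from -1.43 to -1.33.

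Ccn2 lies close to the targeted gene. On chromosome 10, 2 protein-coding genes, Enpp1 and Enpp3, separate Ccn2 from Med23 in the RefSeq gene order of GRCm38.p6. Enpp3, which encodes an ectonucleotidase, read 9.73, 9.73 and 9.70 in knockout arrays and 9.81, 9.71 and 9.67 in wild-type arrays, with overlapping groups (log2 fold change -0.01, limma adjusted p = 0.945). Enpp1 was not analysed here. On the far side of Med23, Arg1 read 3.02 to 3.21 in knockout and 3.01 to 3.29 in wild-type arrays, values too low to tell a change, and Akap7 rose by 0.25 (limma adjusted p = 0.029). On the far side of Ccn2, Stx7 gave 0.06 (limma adjusted p = 0.666), while Moxd1 fell by 0.63 (limma adjusted p = 0.00871) to a low knockout mean of 4.11. An effect of altering the Med23 locus on its neighbour Ccn2 cannot be told apart from an effect of losing the Med23 protein in this design.

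Ankrd1 encodes a nuclear ankyrin repeat protein best known from stretched muscle, and Amotl2 an angiomotin that YAP-TEAD activity also induces. Both Ankrd1 probe sets were low in both groups. The brighter read 2.94, 2.77 and 3.35 in knockout arrays and 3.33, 3.40 and 3.33 in wild-type arrays, with overlapping groups (log2 fold change -0.33, limma adjusted p = 0.196). It passed without knockout replicate 3 (-0.50, limma adjusted p = 0.0219). The other gave -0.39 (limma adjusted p = 0.0588) and passed without wild-type replicate 1 (limma adjusted p = 0.0238), with array weights and with an intensity trend. The mean of both probe sets also passed (-0.36, limma adjusted p = 0.0319). Group means of both lay between 2.79 and 3.35, too low for the size of a difference to be read.

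Amotl2 was well above the median and gave no detectable difference. It read 9.51, 9.51 and 9.42 in knockout arrays and 9.62, 9.45 and 9.51 in wild-type arrays, and the groups overlapped. The log2 fold change was -0.05 (95% interval -0.22 to 0.12, limma adjusted p = 0.736). Differences of the size of those of Ccn1 and Ccn2 lie outside that interval. The Amotl2 and Ccn1 windows shown above each hold 1 TEAD motif.

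Amot encodes angiomotin, a junctional scaffold protein that binds YAP1, and had the lowest log2 fold change of the 10 genes. Its brightest probe set read 5.75, 5.98 and 5.75 (log2) in knockout arrays, against 8.30, 8.23 and 8.34 in wild-type arrays, and the groups lay far apart. The means were 5.83 ± 0.13 in knockout and 8.29 ± 0.06 in wild-type cells (SD, n = 3 each). Knockout cells were thus 5.51-fold lower, a log2 difference of -2.46 ± 0.08 (SE; limma adjusted p = 1.83e-05). Among all 18193 genes ranked from the lowest log2 fold change, Amot was number 30, Ccn1 number 88 and Ccn2 number 161.

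The fall of Amot rests on 1 of its 3 probe sets. The other pair had means of 3.75 and 3.49 in knockout and 3.79 and 3.56 in wild-type cells, below the median in both groups, with log2 fold changes of -0.04 and -0.06 (limma adjusted p = 0.86 and 0.736). These are levels at which a change may not be seen. The mean of all 3 probe sets fell by 0.85 (limma adjusted p = 0.000205), a much smaller difference. Which Amot transcripts each probe set reads was not examined.

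Lats2 encodes the last kinase of the Hippo cascade and is itself a YAP target. Of its 6 probe sets, 5 lay below 4.62 in both groups. The brightest read 5.61, 5.39 and 5.44 in knockout arrays and 5.74, 5.65 and 5.36 in wild-type arrays, with overlapping groups and a log2 fold change of -0.11 (95% interval -0.38 to 0.16, limma adjusted p = 0.619). The other 5 ranged from -0.27 to 0.20 in log2 fold change and none passed.

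Yap1, the coactivator itself, did not pass by either of its probe sets. The brighter read 10.69, 10.73 and 10.76 in knockout arrays and 10.69, 10.62 and 10.67 in wild-type arrays, groups that nearly touched (log2 fold change 0.07, 95% interval -0.07 to 0.21, limma adjusted p = 0.547). The dimmer read 7.16, 7.05 and 7.04 in knockout arrays and 7.81, 7.53 and 7.31 in wild-type arrays, without overlap. This log2 difference of -0.46 ± 0.13 (SE; limma adjusted p = 0.0528) did not pass, and it passed without wild-type replicate 3 (limma adjusted p = 0.0201), with array weights, with an intensity trend and with a filter on low values. Taking the mean of both probe sets turned the sign of Yap1 (-0.20, limma adjusted p = 0.109), so its direction depends on the probe set, and whether the probe sets differ from each other was not tested.

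TEAD factors bind the DNA at YAP target genes. Of Tead1, Tead2 and Tead4, only Tead1 passed, by 1 of its 2 probe sets. Tead1 read 9.77, 9.88 and 9.86 in knockout arrays and 9.36, 9.61 and 9.36 in wild-type arrays, all knockout arrays being higher. The means were 9.84 ± 0.06 in knockout and 9.44 ± 0.14 in wild-type cells (SD, n = 3 each). This is 1.31-fold higher in knockout cells, a log2 difference of 0.39 ± 0.09 (SE; limma adjusted p = 0.0262). The call is fragile: it was kept without wild-type replicate 2 (limma adjusted p = 0.0132) but lost without any other array (limma adjusted p = 0.0556 to 0.0983). The second Tead1 probe set gave 0.00 (95% interval -0.18 to 0.19), and the mean of both did not pass (0.20, limma adjusted p = 0.0601).

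Tead2, the TEAD gene best known from early embryos and neural progenitors, read 9.11, 9.17 and 9.10 in knockout arrays and 9.06, 8.84 and 8.85 in wild-type arrays. The groups did not overlap, but the log2 fold change of 0.21 (95% interval 0.02 to 0.39, unadjusted) did not pass after adjustment (limma adjusted p = 0.142). Tead4, required for the trophectoderm in mouse embryos, read 5.89, 5.74 and 6.02 in knockout arrays and 6.32, 6.31 and 5.77 in wild-type arrays, with overlap. Its log2 fold change was -0.25 (limma adjusted p = 0.384), and it passed only without wild-type replicate 3 (-0.44, limma adjusted p = 0.0407). The second Tead4 probe set gave -0.35 (limma adjusted p = 0.112).

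**Figure D2:**
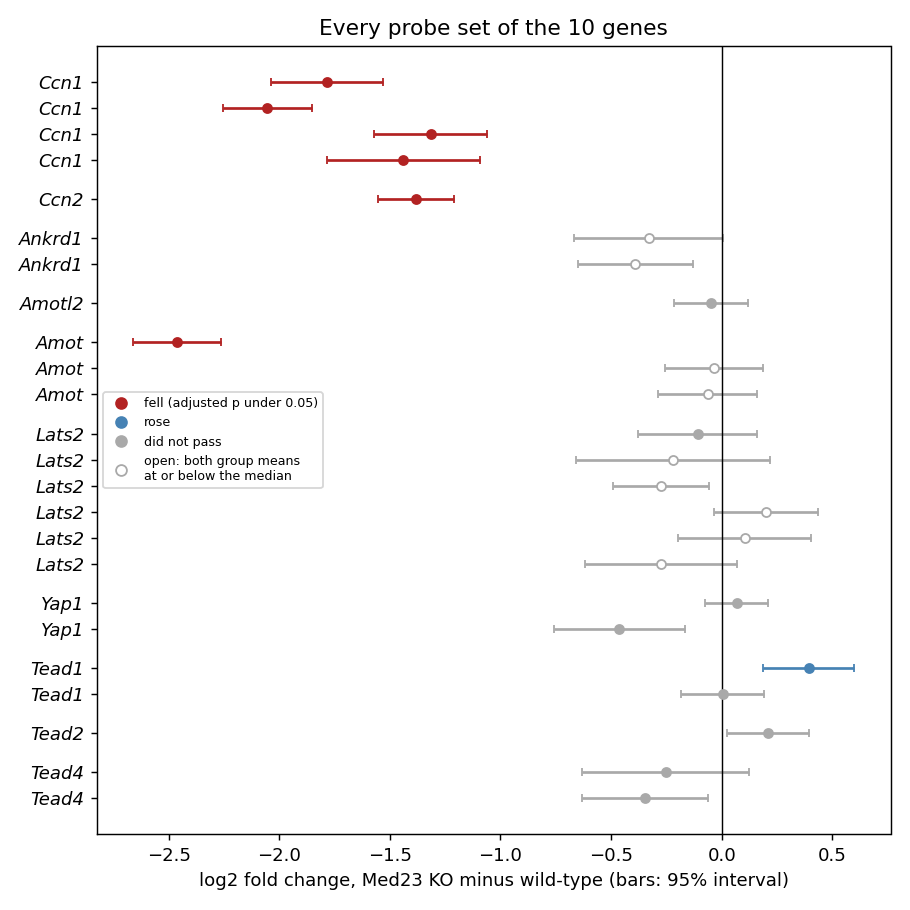
Log2 fold change, knockout minus wild-type (x axis), of all 24 probe sets grouped by gene, with bars for the 95% interval (unadjusted). All 4 Ccn1 probe sets, the Ccn2 probe set and 1 of 3 Amot probe sets lie left of -1; filled red points fell, the blue Tead1 point rose, grey points did not pass, and open points mark probe sets at or below the median in both groups.

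Chromosome neighbours were compared with each member, because genes over a stretch of chromosome 14 were lower in these knockout cells. For each gene the 10 nearest measured genes on either side with a mean above 4.62 were taken, with no test. The medians were near 0 around 9 of the 10 genes, from -0.08 for Ccn1 to 0.14 for Amot. Single neighbours did change. Around Ccn1, 4 of 20 fell and 0 rose: Ddah1, Syde2, Adgrl2 and Gipc2. All 4 lay on the same side of Ccn1, which the median over both sides does not show. Gipc2 was the lowest at -0.82, and Ddah1, directly beside Ccn1, fell by 0.42 (limma adjusted p = 0.00723). Around Amot, 6 of 20 rose and 3 fell. Of all genes, at any level, 8.53% rose and 10.4% fell, and the share among genes above 4.62 was not counted. On the log2 scale Ccn1 differed from the median of its neighbours by -1.71, Amot by -2.60 and Ccn2 by -1.40. Without Med23 itself, the median of the 19 other neighbours of Ccn2 was 0.05, and 2 of the 19 fell, Soga3 (-1.31, limma adjusted p = 0.000337) and L3mbtl3 (-0.39, limma adjusted p = 0.0224), while 3 rose (Ahi1, Akap7 and Epb41l2).

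Lats2 was the exception. On chromosome 14, 14 of its 20 neighbours fell and none rose, with a median of -0.66, and Xpo4, directly beside it, fell by 0.97 (limma adjusted p = 0.000184). Lats2, at -0.11, lay 0.55 above that median. Its brightest probe set averaged 5.48 in knockout and 5.59 in wild-type cells, less than 1 log2 unit above the median of all probe sets, a level at which a change may be understated.

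**Figure D3:**
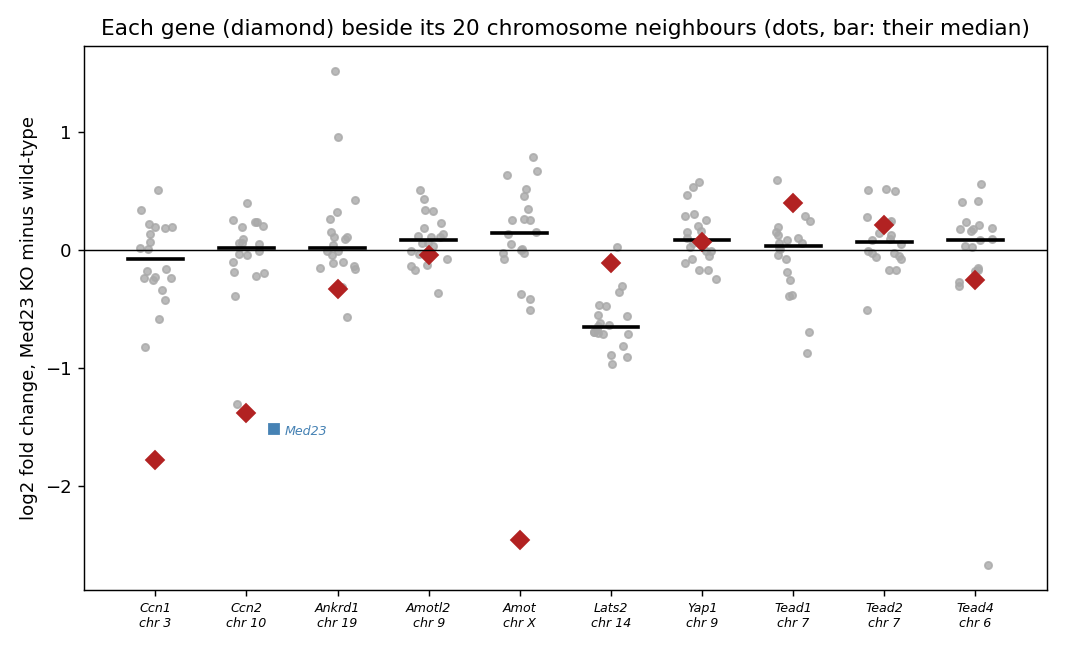
Log2 fold change, knockout minus wild-type (y axis), of each of the 10 genes (red diamond) and of its 20 nearest measured chromosome neighbours (grey dots; black bar, their median; the blue square is Med23, a neighbour of Ccn2). Diamonds for Ccn1, Ccn2 and Amot lie far below the medians of their neighbours. The neighbours of Lats2 are centred on -0.66 while Lats2 is at -0.11.

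The wider pathway was described through 47 further measured genes: Hippo kinases and upstream regulators, partners of YAP and TEAD, other genes of a YAP target signature, and the rest of the CCN family. Of these, 10 fell, 3 rose and 34 did not pass, or 21.3% lower and 6.38% higher where 10.4% and 8.53% of all genes were. Their median log2 fold change was -0.15, and 14 lay at or below 4.62 in both groups. The same counts, 10 lower and 3 higher, were found without wild-type replicate 1, but not for the same genes, since Lats1 then no longer passed.

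Among 20 kinases and upstream regulators, 3 fell and 1 rose. Ptpn14, a phosphatase that binds YAP1 and keeps it from the nucleus, read 7.04, 6.80 and 7.05 in knockout arrays and 8.41, 8.23 and 8.38 in wild-type arrays (log2 difference -1.37 ± 0.09 SE, limma adjusted p = 0.000168), and all 3 of its probe sets fell. Ajuba, a LIM-domain protein that restrains LATS kinases, fell by 1.16 (limma adjusted p = 0.000207). It lies on chromosome 14 among neighbours with a median of -0.68, 17 of 20 of them lower. Frmd6, a FERM-domain protein upstream of the kinases, fell by 0.55 (limma adjusted p = 0.00111). Lats1, the paralogue of Lats2, rose by 0.28 (limma adjusted p = 0.034), a call lost in each fit that left out 1 array (limma adjusted p = 0.0524 to 0.119). The upstream kinase gene Stk4 and the tumour suppressor gene Nf2 gave 0.08 and 0.07 and did not pass, although 1 of the 3 dimmer Nf2 probe sets fell. Wwc2 (0.30, limma adjusted p = 0.058) and Amotl1 (-0.25, limma adjusted p = 0.105) did not pass by their brightest probe sets either. Of the Wwc2 probe sets, 2 of 5 rose, and of the Amotl1 probe sets, 1 of 3 fell.

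Of 7 partners of YAP and TEAD, 2 fell and none rose. Wwtr1 encodes TAZ, the paralogue of YAP1. It read 8.45, 8.52 and 8.48 in knockout arrays and 8.85, 8.88 and 8.83 in wild-type arrays, clearly apart, a log2 difference of -0.37 ± 0.06 (SE; limma adjusted p = 0.00682) with all 3 probe sets lower. Vgll3, a TEAD cofactor of the vestigial-like family, fell by 1.71 (limma adjusted p = 0.000232) to a knockout mean of 3.70, below 4.62, so the size of the fall is uncertain. Tead3 gave -0.18 (limma adjusted p = 0.402).

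The other genes of the YAP target signature went both ways. Of 17, 6 fell and 2 rose, with a median of -0.26. Besides Ptpn14, which is also on the regulator list, the largest falls were those of Igfbp3, an insulin-like growth factor binding protein (-0.91), Axl, a receptor tyrosine kinase (-0.81), and F3, tissue factor (-0.70). Axl fell by 1 of its 2 probe sets, to a knockout mean of 3.91, below 4.62. Gadd45a also fell, and Arhgef17 fell by 1 of its 5 probe sets. The Arhgef17 call was lost without knockout replicate 1 or 3 (limma adjusted p up to 0.0618) and with a replicate block. Myof, a membrane repair protein of the ferlin family, read 6.65, 6.80 and 6.37 in knockout arrays and 5.39, 4.91 and 4.97 in wild-type arrays, and rose by 1.52 (SE 0.16, limma adjusted p = 0.00109), by 1 of its 2 probe sets. Dock5, an activator of Rac, rose by 0.61 (limma adjusted p = 0.00547). The CCN genes Ccn3, Ccn4, Ccn5 and Ccn6 all lay below 4.62 in both groups by their brightest probe sets and none passed; 1 dimmer probe set of Ccn4 fell.

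**Figure D4:**
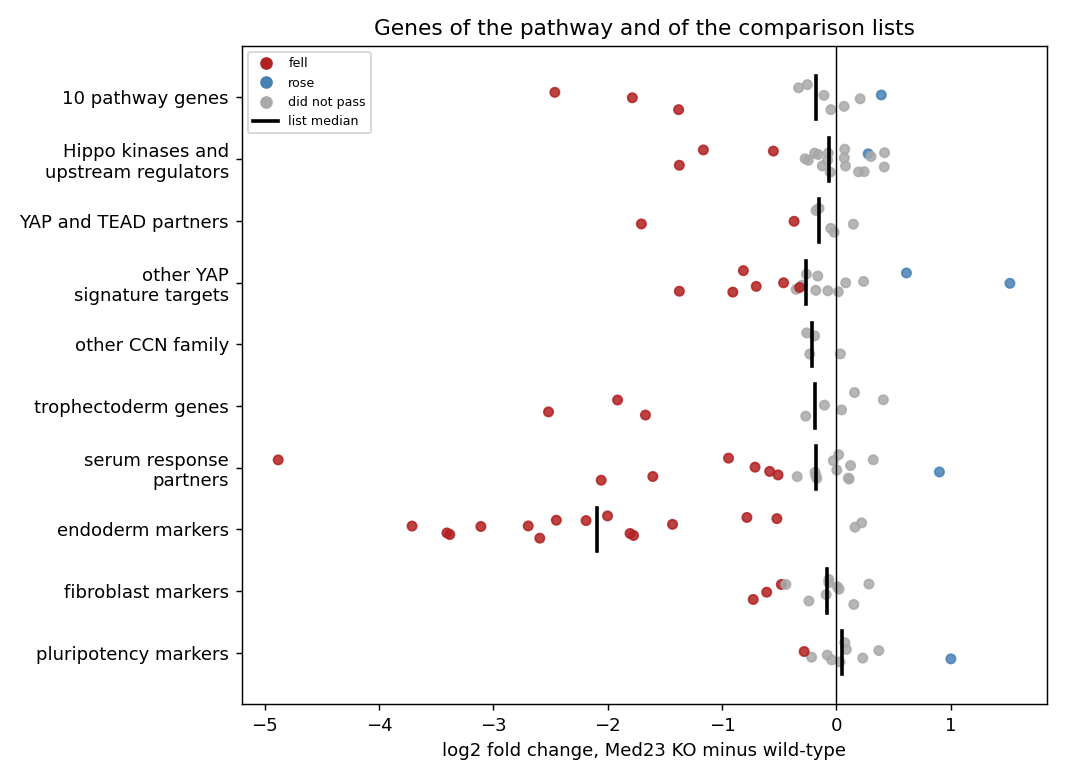
Log2 fold change, knockout minus wild-type (x axis), of each measured gene of the 10 pathway genes and of 9 comparison lists (rows), 1 point per gene and a black bar at the list median. Red points fell, blue rose and grey did not pass; 14 of 16 endoderm markers are red with a median of -2.10, while the fibroblast and pluripotency lists centre near 0.

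Markers of other cells that an ES culture can hold were read on the same arrays, and most endoderm markers were lower in the knockout. In bulk RNA, fewer cells of a type and less RNA per cell cannot be told apart. Of 16 endoderm markers, 14 fell and none rose (median -2.10), with Col4a2, Col4a1, Dab2 and Cubn lowest (-3.71, -3.41, -3.38 and -3.11). The summed level of the 16, on the linear scale, ran from 5560 to 5616 in knockout arrays and from 10714 to 12956 in wild-type arrays. Apoe, by far the brightest of the 16 (mean 12.12 in knockout and 12.64 in wild-type cells), weighs most on this sum. It fell by only 0.52 (limma adjusted p = 0.00584), so the sum understates the falls of most of the list. At or below 4.62 were 7 of the 16 in the knockout and 2, Afp and Ttr, in the wild type. Of 8 trophectoderm genes, several of them targets of TEAD4, 3 fell: the simple-epithelium keratins Krt8, Krt7 and Krt18 (-2.52, -1.91 and -1.67), Krt7 to a knockout mean of 4.56, just under 4.62. The summed level of all 8 trophectoderm genes was 1158 to 1227 in knockout and 2925 to 3272 in wild-type arrays. None of the 5 trophectoderm transcription factor genes passed. Cdx2 (-0.27) and Elf5 (0.05) lay below 4.62 in both groups. Eomes averaged 6.72 in knockout and 6.31 in wild-type cells (0.41, limma adjusted p = 0.0804), Tfap2c 8.73 in knockout and 8.58 in wild-type cells (0.16), and Gata3 5.03 in knockout and 5.13 in wild-type cells (-0.10). The part of these cell types in the falls of Ccn1, Ccn2 and Amot was not tested.

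Fibroblast markers, included because ES cells are often grown on fibroblast feeders, were mostly low. Of 12 fibroblast markers, 3 fell and none rose, 8 were at or below 4.62 in both groups, Col1a1, Col1a2 and Col3a1 among them, and the summed level was 200.4 to 206.0 in knockout and 234.1 to 264.4 in wild-type arrays. The ES identity of the cells was seen in Pou5f1, Nanog and Sox2, all above 11 (log2) on every array. Of 10 pluripotency markers, 1 fell, 1 rose and 8 did not pass, with a summed level of 58851 to 60003 in knockout and 56096 to 60162 in wild-type arrays.

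Ccn1 and Ccn2 are also immediate early genes that serum response factor (SRF) can induce. Of 19 genes of that system, 7 fell and 1 rose, or 36.8% lower and 5.26% higher where 10.4% and 8.53% of all genes were. The largest falls were those of Egr1 (-4.88), the AP-1 subunit gene Jun (-2.06), Tagln, an actin-binding protein gene (-1.61), and the AP-1 subunit gene Junb (-0.94). The gene that rose was Myl9, a myosin light chain gene (0.90, limma adjusted p = 0.000361). The fall of Cnn1 (-0.51) held in only 1 of the 6 fits that left out 1 array. The other 11 genes did not pass, Actb, Actg1, Acta2 and Vcl among them. Srf itself gave -0.17 and its coactivator genes Mrtfa and Mrtfb 0.12 and 0.00, none of which passed. Whether Ccn1 and Ccn2 moved with YAP-TEAD or with SRF input was not tested.

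The genes whose pattern over the 6 arrays was most like that of Ccn1 and Ccn2 were found by the Euclidean distance between mean-centred log2 values, among genes with a mean above 4.62. With all 6 arrays in 2 groups, this mainly finds genes with a fall of like size. For Ccn1 they were Anxa8 (distance 0.19), 2610528J11Rik (0.21), Car3 (0.23), Gsn (0.25) and Snai3 (0.26). The knockout mean of Car3, 4.26, lay below 4.62 and that of Anxa8, 4.63, just above it, so the size of those falls is uncertain. For Ccn2 they were Sparc (0.07), Efs (0.09), Tgm1 (0.09), Slc1a5 (0.12) and Lmna (0.15). Sparc, which encodes a secreted matrix glycoprotein, read 9.86, 9.84 and 9.80 in knockout arrays and 11.28, 11.16 and 11.10 in wild-type arrays, nearly the spacing of Ccn2.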

How the data were processed

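For the 6 arrays the authors deposited probe set values that fit a log2 scale by their range; no header names the scale. RMA and MAS5 are listed without a role, per the submitters' processing notes. Total RNA was taken with Trizol and labelled as biotinylated cRNA, per the labels' protocols. Values were used as deposited. There were 0 columns of other samples, and 64 array controls were left out. Symbols came from the platform annotation (34945 probe sets with 1 symbol, 932 with several, 9160 with none); 34741 matched a RefSeq table of GRCm38.p6 by Entrez identifier for current names and gene order. Each gene was read by its brightest probe set over the 6 arrays.

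Groups came from the titles. Differences were tested two-sided by lmFit and eBayes of limma 3.58.1 under R 4.3.3 (4 residual degrees of freedom, prior 3.08) over 45037 probe sets, with Benjamini-Hochberg adjustment and a threshold of 0.05. In simulated data of 45037 probe sets, 50 each were changed by 0.4, 0.8, 1.5 and 2.5 (log2) and the rest were not. Of these, 20%, 88%, 100% and 100% were recovered, with 11 false calls. In the real data 14.1% of all probe sets were called, a far larger share than was changed in the simulation. The adjusted threshold therefore differs, and these rates do not give the power of the real comparison. Same-numbered arrays were not taken as pairs. The named genes were Med23, the 10 members, the Hippo and YAP lists (values for up to 4 per list and direction, those with the largest change past the threshold), up to 4 called members of the other lists, and the 5 genes most like Ccn1 and Ccn2. Genes beside Ccn1, Ccn2 and Lats2 (such as Soga3, L3mbtl3 and Xpo4), the trophectoderm factors and Apoe were named after their values were seen. So were Myl9, Cnn1 and unpassed genes such as Stk4, Nf2, Srf and Tead3. The members and lists were chosen with earlier results of these data known.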

Additional observations from a re-analysis of the deposited data

How the results depend on the processing

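The alternatives were quantile normalization, median centring, a filter on low values, an intensity trend, array weights, a replicate block, leaving out each array, and the mean of a gene's probe sets. The falls of Ccn1, Ccn2, Amot and Med23 kept their direction and their side of the threshold under all of these, but with the mean of probe sets the Amot difference was -0.85, against -2.46. Of 10 pathway genes, 1 rose as reported, but 0 rose with the mean of probe sets, and 0 to 1 rose with 1 array left out (0 without any knockout array or without wild-type replicate 3); for the 24 probe sets this range was also 0 to 1. The falls numbered 3 to 4 genes and 6 to 8 probe sets. With the mean of probe sets Yap1 turned to -0.20. Among the other Hippo and YAP genes, 5 rose with the intensity trend and 6 with the filter on low values, against 3. The falls in that list, 10 as reported, numbered 15 with the mean of probe sets and 12 with the intensity trend. They numbered 9 to 11 under every other alternative. Over all features, 1497 to 3494 probe sets and 800 to 1841 genes rose with 1 array left out: leaving out knockout replicate 1 gave 1710 probe sets (891 genes), knockout replicate 2 gave 1497 (800), knockout replicate 3 gave 1549 (816) and wild-type replicate 2 gave 1826 (963). Same-numbered arrays did not deviate together (correlations -0.13, -0.06 and 0.00083), and no array correlated best with its own number. Deviations from the means of 3 arrays are tied to each other, so these values cannot show that no pairing exists. With the replicate block 1915 probe sets and 1000 genes rose, and no call of the 10 genes changed, while the dimmer probe sets of Yap1 and Ankrd1 then fell and Lats1 and Arhgef17 lost their calls. The cause of these shifts was not tested; fewer arrays leave fewer degrees of freedom. With 5 or 20 neighbours on each side, the median around Lats2 was -0.67 and -0.66; with 5 on each side the medians around Ankrd1, Amot and Tead1 moved to -0.11, -0.02 and -0.09. Signals near background limit Ankrd1, most Lats2 probe sets and the dimmer Amot probe sets.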
